A study of Mus musculus with 9 samples.

Results

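The genes described here encode the major histocompatibility complex (MHC) class II chains of the mouse and the proteins that guide their loading. They are H2-Aa, H2-Ab1, H2-Eb1 and H2-Eb2 (chains of the peptide-presenting molecules), Cd74 (the invariant chain), H2-DMa, H2-DMb1 and H2-DMb2 (chains of the peptide exchange factor DM), and H2-Oa and H2-Ob (chains of the DM inhibitor DO). The members were chosen by gene symbol, and all 10 were found among the 40879 symbols of the deposited count tables and passed the filter on low counts. Expression was measured in type 2 conventional dendritic cells (cDC2s) sorted from mouse bone marrow cultured for 9 days with 100 ng/ml recombinant human Flt3L, the cytokine that drives dendritic cell growth. There were 3 groups of 3 libraries. The A20iKO libraries came from cultures of the genotype A20fl/fl x CD11ccre, in which a Cre recombinase driven by the CD11c promoter acts on a floxed gene for A20, a ubiquitin-editing enzyme that restrains NF-kB signalling. The IFNa libraries came from cultures of the genotype WT given interferon alpha on day 5, and the WT libraries from cultures of the genotype WT. The labels do not say whether WT cultures carried the Cre or the floxed allele. The treatment protocol field names IFNa for all 9 libraries, whereas titles and the treatment entry name it for the 3 IFNa libraries, so the groups rest on the titles. Each group derived from 3 mice per the series' design text. The sources used here state neither strain, age and sex nor whether a library holds the cells of 1 mouse, so the p-values below measure the spread between libraries, which may be technical in part.

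Class II molecules carry peptides cut from endocytosed protein to the surface of antigen-presenting cells, where CD4 T cells read them. In the endoplasmic reticulum the alpha and beta chains assemble on the invariant chain, which blocks the groove and steers the complex to endosomes, where proteases trim it to a remnant peptide called CLIP. DM then exchanges CLIP for antigen peptides, and DO holds DM back. The genes share promoter elements, the S, X and Y boxes, on which the RFX and NF-Y complexes and CREB sit and to which the transactivator CIITA is recruited. Dendritic cells are known for high class II synthesis while immature and for lower synthesis with longer-lived surface complexes after maturation.

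Total counts were 7187359 to 9518822 in A20iKO libraries, 7041519 to 10246810 in IFNa libraries and 6900598 to 10552756 in WT libraries, and levels below are counts scaled to a common library size (CPM, with TMM factors), where mean ± SD always has n = 3. Each read tags the 3' end of a transcript, so levels of different genes are compared without regard to length. One library of each group stood apart by stromal transcripts. The summed level of 10 stromal markers was 4367 CPM in A20iKO replicate 1, 4684 CPM in IFNa replicate 3 and 4510 CPM in WT replicate 2, while the remaining libraries held 476 to 2319 CPM. All 11 dendritic cell and cDC2 markers were read, with sums of 1089 to 1254 CPM in A20iKO, 1463 to 1673 CPM in IFNa and 1589 to 2217 CPM in WT libraries. Single markers went both ways, as Sirpa averaged 455, 197 and 170 CPM and Cd209a 11, 114 and 331 CPM in the same order. Of these 11 markers, 2 rose and 7 fell in A20iKO vs WT, and 2 fell in IFNa vs WT. Sums of the 10 cDC1 markers were 358 to 398 CPM, 625 to 666 CPM and 958 to 1159 CPM in the same order. Those of the 12 monocyte and macrophage markers were 2853 to 2969 CPM, 1956 to 2492 CPM and 1328 to 1622 CPM, but single markers went different ways. Ly6c2 averaged 740, 678 and 26 CPM in the same order, Lyz2 698, 129 and 363 CPM, and Adgre1 37, 38.4 and 92.3 CPM. Of these 12 markers, 9 rose and 1 fell in A20iKO vs WT, and 3 rose and 2 fell in IFNa vs WT. Plasmacytoid markers, 9 in number, summed to 831 to 1034 CPM in A20iKO, 764 to 862 CPM in IFNa and 659 to 777 CPM in WT libraries. Tcf4, the largest part, averaged 528, 393 and 311 CPM in the same order, whereas Siglech ran the other way at 62.8, 159 and 241 CPM. Of the 8 plasmacytoid markers tested, 5 rose and 1 fell in A20iKO vs WT, and 1 rose in IFNa vs WT. The sums of 10 neutrophil markers were 266 to 381 CPM, 317 to 372 CPM and 97.4 to 122 CPM in the same order, with the defining Ly6g at 0 throughout, but different genes made them up. Prtn3, Mmp8 and Mpo averaged 174, 77.6 and 65.3 CPM in A20iKO libraries, against 0.593, 8.59 and 1.79 CPM in WT libraries. S100a8 and S100a9 averaged 5.98 and 4.84 CPM in A20iKO, 120 and 157 CPM in IFNa and 36.4 and 47.8 CPM in WT libraries. Of the 9 neutrophil markers tested, 3 rose and 2 fell in A20iKO vs WT, and 3 rose in IFNa vs WT. Among all genes tested, 10.7% and 3.1% were called in these comparisons. The part of these cell type differences in the results below was not tested, and in such bulk samples fewer cells of a type and less RNA per cell cannot be told apart. Tnfaip3, the A20 gene, held 285, 476 and 377 counts in A20iKO, 73, 84 and 74 in IFNa and 232, 51 and 42 in WT libraries. Its tags were higher in A20iKO than in WT libraries (log2 fold change 1.95, SE 0.515; edgeR adjusted p = 0.028). The labels do not say which part of the gene the floxed allele removes, and a 3' tag outside that part checks nothing about the deletion.

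The promoters of the family were compared with each other, including those of members whose transcripts moved in opposite directions. RefSeq start sites on GRCm38.p6 were matched by symbol for 8 of the 10 members, 9 windows in all since H2-DMa has a pair of starts, and each window runs from 250 bases before the start to 50 after. No promoter sequence of H2-Ab1 or Cd74 was used here. The letters GATTGG, which hold CCAAT (the NF-Y motif) on the opposite strand, were searched on both strands and stood in 8 of these 9 windows and in all 8 members, whereas 16.1% of 32851 promoter windows held them. The arrangement of AAC with GATTGG starting 20 to 40 bases further on was present in 7 of the 8 members, H2-DMa being the exception, and in 3.8% of all windows. The spacing in those 7 was 27 to 30 bases, a range that 0.913% of all windows met, and GATTGG began 44 to 101 bases before the start. Where several AAC lay in range, the 1 with a spacing nearest to 30 bases was taken, which by itself draws the spacings together. These letters and spacings were chosen after the sequences were seen. Below, capitals mark AAC and GATTGG, written along the gene's strand.
H2-Aa (chr17:34287857-34287912, minus strand): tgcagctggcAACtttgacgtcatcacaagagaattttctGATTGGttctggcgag
H2-Eb1 (chr17:34305768-34305822, plus strand): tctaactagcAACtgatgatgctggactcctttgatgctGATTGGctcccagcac
H2-Eb2 (chr17:34325535-34325589, plus strand): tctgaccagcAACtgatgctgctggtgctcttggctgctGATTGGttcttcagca
H2-DMb1 (chr17:34153089-34153144, plus strand): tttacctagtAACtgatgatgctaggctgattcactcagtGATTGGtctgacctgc
H2-DMb2 (chr17:34145118-34145173, plus strand): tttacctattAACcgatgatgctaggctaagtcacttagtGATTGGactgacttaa
H2-Oa (chr17:34092295-34092350, plus strand): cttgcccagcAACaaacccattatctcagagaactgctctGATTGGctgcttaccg
H2-Ob (chr17:34238810-34238862, plus strand): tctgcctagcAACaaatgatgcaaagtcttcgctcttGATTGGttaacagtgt

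The beta chain genes H2-Eb1, H2-Eb2, H2-DMb1 and H2-DMb2 further shared AACNGATG (both strands searched, overlapping the AAC above), found in 2.32% of all windows. The window of H2-Ob, the DO beta chain gene, did not hold it. Over the windows, H2-DMb1 and H2-DMb2 were identical at 81.4% of aligned positions (210 of 258, with 84 gap positions left out). The same value for H2-Eb1 and H2-Eb2 was 66.4% (172 of 259, with 82 gap positions left out). Other pairs aligned were H2-Oa and H2-Ob, at 61.4%, and H2-Aa and H2-Eb1, at 51.6%. Windows of unrelated genes were not aligned, so the level that such pairs reach is not known, and the lower values need not mean likeness. All members but Cd74, which lies on chromosome 18, sit together on chromosome 17 in the order H2-Oa, H2-DMa, H2-DMb2, H2-DMb1, H2-Ob, H2-Ab1, H2-Aa, H2-Eb1, H2-Eb2. The genes of each beta chain pair are thus neighbours within this list.

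The first comparison sets A20iKO against WT cDC2s. Of the 10 members, 8 were lower and 2, H2-Eb2 and H2-DMb2, were higher (edgeR's quasi-likelihood test, Benjamini-Hochberg adjusted p under 0.05 over 13251 genes). Across all genes 10.7% were called, 5.77% higher and 4.91% lower. The median log2 fold change of the members was -0.99, against -0.01 over all genes tested. The libraries of the groups did not overlap for any of the 10 members, as for 28% of all genes. Together the members took 1.65% to 1.76% of a library's counts in A20iKO and 3.37% to 4.04% in WT. These shares rest on no scaling factor but on the total counts, of which other genes took unequal parts. The gene Gm26917 alone held 12.3% to 13.8% of counts in A20iKO, 12.2% to 17.3% in IFNa and 5.21% to 11.4% in WT libraries.

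The second comparison sets IFNa-treated against untreated WT cDC2s. Of the members, 6 were lower, 1 (H2-Eb2) was higher and 3 (H2-DMa, H2-DMb1 and Cd74) did not pass, where 3.1% of all genes were called, 2.4% higher and 0.702% lower. The median log2 fold change was -0.65 for the members and -0.02 over all genes. The groups did not overlap for 9 members, H2-DMb1 being the exception, as for 18.2% of all genes. The members' share of counts was 2.14% to 2.38% in IFNa libraries.

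The third comparison, A20iKO against IFNa, tests directly where the groups differ from each other. Here 3 members (H2-Aa, H2-Ab1 and H2-DMb1) were lower in A20iKO, 2 (H2-Eb2 and H2-DMb2) were higher and 5 did not pass. Of all genes 5.46% were called, 2.05% higher and 3.41% lower. The median log2 fold change of the members was -0.44 against 0.02 over all genes, and 7 members did not overlap between the groups, as did 24.6% of all genes. The comparisons with WT share the WT libraries, so their results are not independent of each other.

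**Figure D1:**
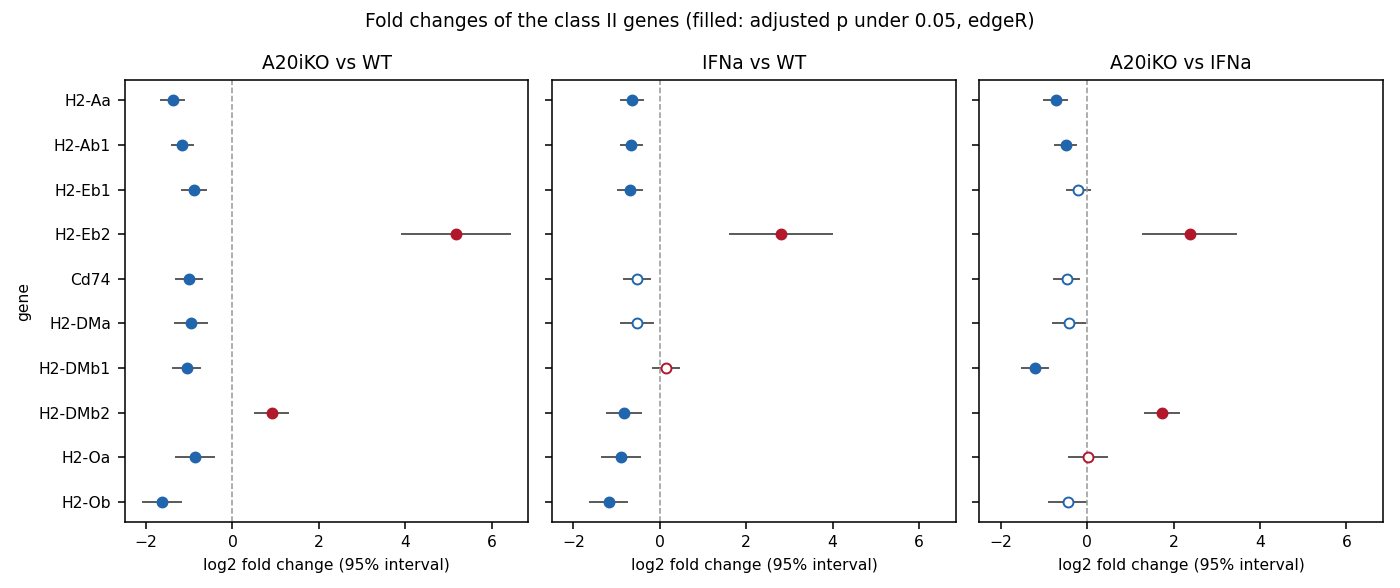
Log2 fold changes (x axis) of the 10 class II genes (rows) in A20iKO vs WT, IFNa vs WT and A20iKO vs IFNa; lines are 95% intervals and filled points passed edgeR's test at an adjusted p under 0.05. Most points lie left of 0, H2-Eb2 lies right of 0 in all 3 panels (5.18, 2.81 and 2.37), and H2-DMb2 is right of 0 in both A20iKO panels (0.91 and 1.73) but at -0.83 in IFNa vs WT.

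H2-Aa and H2-Ab1, the alpha and beta chains of the I-A molecule, were among the most abundant transcripts of these cells and fell in stepped fashion. H2-Aa had 4598, 4513 and 4526 CPM in A20iKO libraries, 8574, 6534 and 7569 CPM in IFNa libraries and 13521, 10082 and 11933 CPM in WT libraries. The 3 groups did not overlap, with A20iKO lowest and closest together. By mean level H2-Aa ranked 9 among all genes in A20iKO, 5 in IFNa and 4 in WT. Its log2 fold change was -1.38 in A20iKO vs WT (SE 0.122; edgeR adjusted p = 1.02e-05), or 2.61-fold lower, and -0.65 in IFNa vs WT (SE 0.12; edgeR adjusted p = 0.00834). The direct difference of A20iKO from IFNa was -0.73 (SE 0.12; edgeR adjusted p = 0.00263). H2-Ab1 had 3579, 3823 and 4006 CPM in A20iKO, 5797, 5281 and 5067 CPM in IFNa and 9026, 7206 and 9229 CPM in WT libraries. The same order held without overlap. Its log2 fold change was -1.16 in A20iKO vs WT (SE 0.111; edgeR adjusted p = 1.8e-05), -0.66 in IFNa vs WT (edgeR adjusted p = 0.00388) and -0.50 in A20iKO vs IFNa (SE 0.109; edgeR adjusted p = 0.0162). The smaller of these differences depended on which libraries were kept. The H2-Aa call in IFNa vs WT was lost without IFNa replicate 2 (log2 fold change -0.55; edgeR adjusted p = 0.0673) or WT replicate 1 (-0.54; edgeR adjusted p = 0.0533). The H2-Ab1 call in A20iKO vs IFNa was lost without A20iKO replicate 1, 2 or 3 (edgeR adjusted p = 0.0541, 0.0858 and 0.0547) or IFNa replicate 1 or 2 (edgeR adjusted p = 0.0987 and 0.055).

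H2-Eb1, the beta chain of the I-E molecule, lay near the level of the I-A beta chain but separated the groups otherwise. It had 3751, 4450 and 4671 CPM in A20iKO, 5328, 4937 and 4554 CPM in IFNa and 8914, 6625 and 8366 CPM in WT libraries. Every A20iKO and IFNa library lay below every WT library, while the A20iKO and IFNa groups overlapped. H2-Eb1 was 1.86-fold lower in A20iKO than in WT (log2 fold change -0.89, SE 0.126; edgeR adjusted p = 0.000441) and 1.61-fold lower in IFNa than in WT (-0.69, SE 0.125; edgeR adjusted p = 0.00722). Between A20iKO and IFNa the log2 fold change was -0.20, with a 95% interval of -0.47 to 0.07 (edgeR adjusted p = 0.491). With the summed stromal markers as a covariate H2-Eb1 passed there (-0.28; edgeR adjusted p = 0.0147), in 1 of 17 alternatives. Its partner, the alpha chain gene H2-Ea, is listed with 0 counts in all 9 libraries, which allows at most 0.284 to 0.435 CPM by library (3 counts; counting error only). As background, H2-Ea is not transcribed in mice of the H2b haplotype, such as C57BL/6, which then show no I-E molecule at the cell surface.

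**Figure D2:**
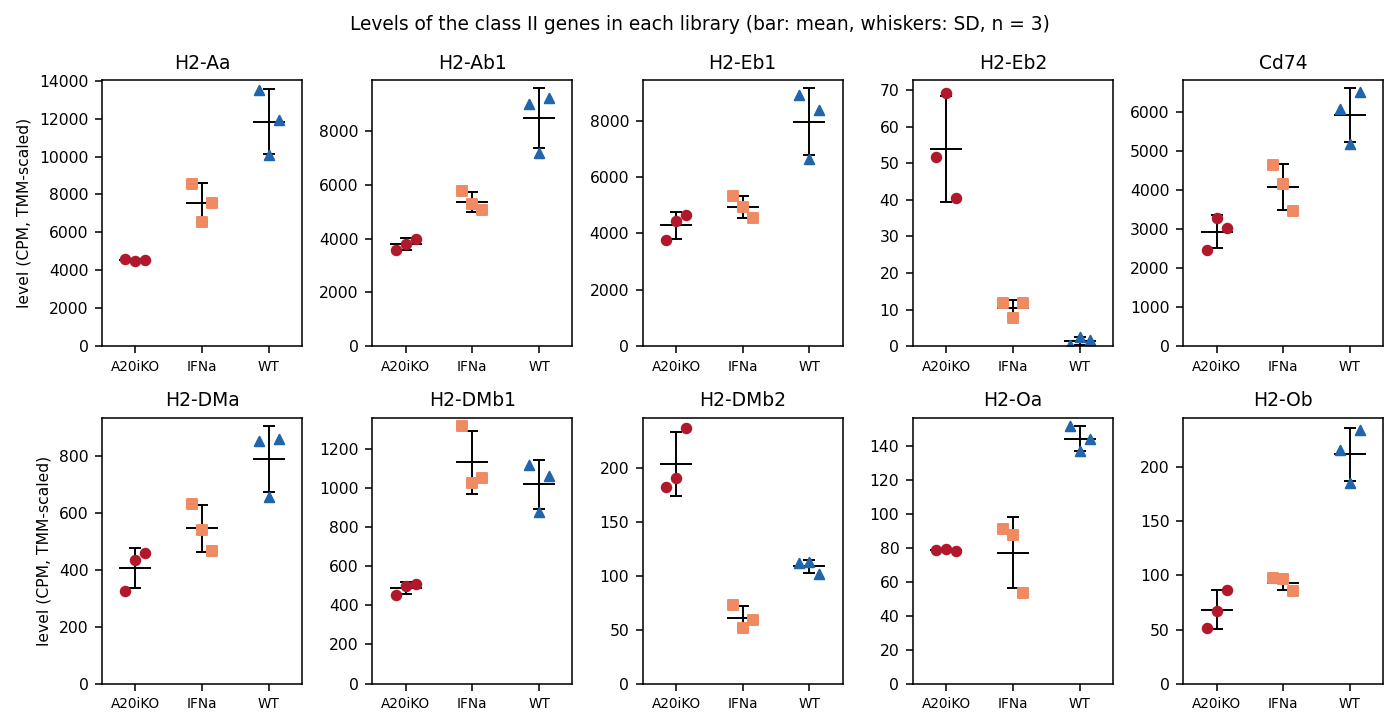
Level in CPM (y axis, linear from 0, its own scale per gene) of each class II gene in the 3 libraries of A20iKO (circles), IFNa (squares) and WT (triangles); horizontal lines are means and whiskers SD. H2-Aa averages 4546 CPM in A20iKO, 7559 CPM in IFNa and 11845 CPM in WT, H2-Eb2 runs the other way, and H2-DMb2 is highest in A20iKO and lowest in IFNa.

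H2-Eb2, a little expressed neighbour of H2-Eb1 that encodes a further class II beta chain, ran opposite to the other peptide-presenting chains. It had 51.7, 69.2 and 40.5 CPM in A20iKO (394, 611 and 385 counts), 11.7, 7.75 and 11.7 CPM in IFNa (108, 67 and 79 counts) and 0.294, 2.4 and 1.82 CPM in WT libraries (3, 18 and 18 counts). The groups did not overlap, and the order was A20iKO, IFNa, WT from high to low. H2-Eb2 rose 36.2-fold in A20iKO over WT (log2 fold change 5.18, SE 0.578; edgeR adjusted p = 7e-05) and 7-fold with IFNa over WT (2.81, SE 0.541; edgeR adjusted p = 0.0106). A20iKO exceeded IFNa by 2.37 on the log2 scale (SE 0.494; edgeR adjusted p = 0.0124). The last call was lost without A20iKO replicate 2 (2.14; edgeR adjusted p = 0.0801) or IFNa replicate 2 (2.20; edgeR adjusted p = 0.0695). The IFNa vs WT call was lost when A20iKO libraries were left out of the fit (2.76; edgeR adjusted p = 0.161). Even in A20iKO, H2-Eb2 stood at 1.27% ± 0.357 of the H2-Eb1 counts, against 0.212% ± 0.0508 in IFNa and 0.0205% ± 0.0165 in WT. The last 500 bases of the longest annotated H2-Eb2 and H2-Eb1 transcripts were identical at 56.9% of aligned positions and shared no stretch of 50 bases. Of 10 B cell markers, which were read because B cells also make class II, the defining Cd79a was at 0 in all libraries. Their summed levels were 125 to 154 CPM in A20iKO, 95.1 to 111 CPM in IFNa and 86.2 to 117 CPM in WT libraries. Ighm, the largest part, averaged 74.7, 78.1 and 78 CPM in the same order. Pax5 averaged 16.8, 0.662 and 0.579 CPM, Cd79b 15.7, 3.31 and 4.2 CPM, Cd22 14.3, 10.6 and 1.7 CPM, and Ebf1 10.3, 8.18 and 11.6 CPM. Of the 5 B cell markers tested, 1 rose and 0 fell in A20iKO vs WT (20% against 10.7% of all genes). In IFNa vs WT 0 passed. The part of these transcripts in the H2-Eb2 level was not tested.

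Cd74, the invariant chain gene, followed the I-A chains at a lower level. It had 2472, 3286 and 3031 CPM in A20iKO, 4630, 4146 and 3464 CPM in IFNa and 6067, 5161 and 6503 CPM in WT libraries. The groups did not overlap, but neighbouring groups lay close together. Cd74 was 2.02-fold lower in A20iKO than in WT (log2 fold change -1.01, SE 0.139; edgeR adjusted p = 0.000365). Its log2 fold change was -0.53 in IFNa vs WT (95% interval -0.83 to -0.24; edgeR adjusted p = 0.0595) and -0.48 in A20iKO vs IFNa (-0.78 to -0.18; edgeR adjusted p = 0.0675), both just above the threshold. The IFNa vs WT value passed without A20iKO replicate 1, IFNa replicate 1 or WT replicate 2 (edgeR adjusted p = 0.0309, 0.0362 and 0.0316). The A20iKO vs IFNa value passed without IFNa replicate 3 or WT replicate 2 (edgeR adjusted p = 0.0318 and 0.0331). The stroma-rich libraries A20iKO replicate 1, IFNa replicate 3 and WT replicate 2 had the lowest Cd74, H2-DMa and H2-Eb1 level of their group. With the stromal sum as a covariate Cd74 fell in both comparisons (log2 fold change -0.52 and -0.56; edgeR adjusted p = 0.000381 and 0.000185). It also passed in both by DESeq2 (adjusted p = 0.0103 and 0.0255) and with no filter on low counts (edgeR adjusted p = 0.0169 and 0.03), and in IFNa vs WT with RLE factors or scaling by library size alone (edgeR adjusted p = 0.044 and 0.00834). In all, Cd74 passed in 8 of 16 alternatives in IFNa vs WT and in 5 of 16 in A20iKO vs IFNa. In the others the edgeR adjusted p reached 0.258 and 0.282.

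The genes of DM, the editor of the peptide repertoire, did not move as a unit. H2-DMa, the alpha chain, had 325, 435 and 459 CPM in A20iKO, 630, 541 and 466 CPM in IFNa and 854, 657 and 860 CPM in WT libraries. It fell in A20iKO relative to WT (log2 fold change -0.96, SE 0.173; edgeR adjusted p = 0.00267). IFNa libraries lay between without overlap, but neither IFNa vs WT (-0.54, 95% interval -0.91 to -0.16; edgeR adjusted p = 0.151) nor A20iKO vs IFNa (-0.42, -0.80 to -0.05; edgeR adjusted p = 0.217) passed. With the stromal sum as a covariate H2-DMa passed in both (log2 fold change -0.52 and -0.53; edgeR adjusted p = 0.00322 and 0.00195). In IFNa vs WT it also passed by DESeq2 (-0.54; adjusted p = 0.0397) and with scaling by library size alone (-0.66; edgeR adjusted p = 0.0291). In all, H2-DMa passed in 3 of 16 alternatives in IFNa vs WT and in 1 of 16 in A20iKO vs IFNa. In the others the edgeR adjusted p reached 0.409 and 0.573. On the annotation of GRCm38, H2-DMa overlaps Brd2 on the opposite strand, and whether the counting used strand is not stated in those sources. Over the 9 libraries Brd2 held 64053 counts and H2-DMa 46425. Brd2 passed in no comparison, with log2 fold changes of -0.38, 0.04 and -0.43 in A20iKO vs WT, IFNa vs WT and A20iKO vs IFNa (edgeR adjusted p = 0.161, 0.965 and 0.165). The 95% intervals were -0.72 to -0.04, -0.29 to 0.38 and -0.76 to -0.09 in the same order. The part of Brd2 reads in the H2-DMa level was not tested.

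The DM beta chain is encoded by the neighbouring paralogs H2-DMb1 and H2-DMb2, whose fold changes had opposite signs in every comparison. H2-DMb1 had 456, 499 and 511 CPM in A20iKO, 1317, 1028 and 1050 CPM in IFNa and 1118, 876 and 1063 CPM in WT libraries. It fell in A20iKO relative to WT (log2 fold change -1.06, SE 0.141; edgeR adjusted p = 0.000294) and relative to IFNa (-1.21, SE 0.142; edgeR adjusted p = 0.000207). IFNa and WT libraries overlapped, with a log2 fold change of 0.15 and a 95% interval of -0.15 to 0.45 (edgeR adjusted p = 0.765), and with H2-Eb2 it was the member whose mean was not lower under IFNa than in WT. H2-DMb2 had 183, 191 and 238 CPM in A20iKO, 73.4, 51.5 and 58.9 CPM in IFNa and 112, 113 and 102 CPM in WT libraries. The groups did not overlap, and A20iKO and IFNa lay on opposite sides of WT. H2-DMb2 rose in A20iKO over WT (log2 fold change 0.91, SE 0.18; edgeR adjusted p = 0.00515) and over IFNa (1.73, SE 0.184; edgeR adjusted p = 9.47e-05), and fell with IFNa relative to WT (-0.83, SE 0.181; edgeR adjusted p = 0.0229). The fall with IFNa was lost without IFNa replicate 2 or 3 (edgeR adjusted p = 0.122 and 0.0952) or WT replicate 1, 2 or 3 (edgeR adjusted p = 0.0634, 0.0532 and 0.0547), with log2 fold changes of -0.88 to -0.71 over these 5 fits, and with the A20iKO libraries out of the fit (-0.84; edgeR adjusted p = 0.0594).

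Within a library, H2-DMb2 stood at 41.6% ± 4.33 of the H2-DMb1 counts in A20iKO, 5.4% ± 0.336 in IFNa and 10.8% ± 1.81 in WT. The ratio was thus 3.87-fold higher in A20iKO than in WT and 0.502-fold the WT value with IFNa, with no overlap and an exact permutation p of 0.1 each (two-sided; Benjamini-Hochberg p = 0.14 over 21 ratio tests), the smallest that 3 libraries against 3 can give. Of the stretches of 50 bases in the last 500 bases of the H2-DMb1 transcript, 20.4% also occur in H2-DMb2 transcripts, and of those in H2-DMb2 13.7% occur in transcripts of 164 other genes. How reads of such stretches were assigned is not stated in those sources, so the split between the paralogs is uncertain. The last 500 bases of the paralogs were identical at 63.6% of aligned positions. With both summed into 1 gene, the DM beta chain still fell in A20iKO relative to WT (log2 fold change -0.70; edgeR adjusted p = 0.00484) and relative to IFNa (-0.78; edgeR adjusted p = 0.00434), and IFNa vs WT gave 0.08 (edgeR adjusted p = 0.91).

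H2-Oa and H2-Ob encode DO, which is best known from B cells and dampens DM. H2-Oa had 78.4, 79.4 and 78 CPM in A20iKO, 91, 87.3 and 53.1 CPM in IFNa and 152, 137 and 144 CPM in WT libraries. WT stood above both other groups, which overlapped each other. It fell in A20iKO (log2 fold change -0.87, SE 0.203; edgeR adjusted p = 0.0134) and with IFNa (-0.90, SE 0.203; edgeR adjusted p = 0.0285) relative to WT, and A20iKO vs IFNa gave 0.03 with a 95% interval of -0.41 to 0.46 (edgeR adjusted p = 0.986). The A20iKO call was lost without A20iKO replicate 2 or 3 (edgeR adjusted p = 0.0534 and 0.0545). The IFNa call was lost without A20iKO replicate 2, IFNa replicate 2 or 3, or WT replicate 1 or 3 (edgeR adjusted p = 0.052, 0.0679, 0.0823, 0.0849 and 0.0918), and with all A20iKO libraries out of the fit (-0.91; edgeR adjusted p = 0.0619). H2-Ob had 51, 67.2 and 86.7 CPM in A20iKO, 97.9, 96.4 and 86 CPM in IFNa and 216, 186 and 235 CPM in WT libraries. Again WT stood apart, and A20iKO replicate 3 reached into the IFNa range. H2-Ob was 3.1-fold lower in A20iKO (log2 fold change -1.63, SE 0.202; edgeR adjusted p = 0.000164) and 2.27-fold lower with IFNa (-1.18, SE 0.199; edgeR adjusted p = 0.00416) than in WT. A20iKO vs IFNa gave -0.45 (95% interval -0.88 to -0.02; edgeR adjusted p = 0.269). There H2-Ob passed in 1 of 16 alternatives, with the stromal sum as a covariate (-0.57; edgeR adjusted p = 0.033).

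Ratios of counts within a library show how the balance of partner chains differed, whatever the scaling. The alpha to beta ratio of I-A, H2-Aa over H2-Ab1, was 1.2 ± 0.079 in A20iKO, 1.4 ± 0.144 in IFNa and 1.4 ± 0.103 in WT, and A20iKO libraries lay below all WT libraries. The ratio of H2-Eb1 to H2-Ab1 was 1.13 ± 0.0674, 0.918 ± 0.0181 and 0.938 ± 0.0435 in the same order, highest in A20iKO. H2-DMa over the summed DM beta chains was 0.584 ± 0.0659 in A20iKO, 0.458 ± 0.0408 in IFNa and 0.699 ± 0.0372 in WT, without overlap. Relative to DM, DO was lower than in WT in both other groups. The summed DO counts were 13.4% ± 0.312 of the summed DM counts in A20iKO, 9.84% ± 1.32 in IFNa and 18.6% ± 0.99 in WT. The exact permutation p was 0.1 for each of these ratios between groups that did not overlap. The ratio of Cd74 to the summed I-A chains was 0.351 ± 0.0461 in A20iKO, 0.316 ± 0.0388 in IFNa and 0.292 ± 0.02 in WT, and overlapped in all 3 comparisons (exact permutation p = 0.2, 0.4 and 0.4 for A20iKO vs WT, IFNa vs WT and A20iKO vs IFNa). Of the 7 ratios, 6 did not overlap in A20iKO vs WT, 4 in IFNa vs WT and 5 in A20iKO vs IFNa. These ratios share genes, and the share for ratios of other genes was not computed, so the counts have no background beside them. H2-Aa over H2-Ab1 separated narrowly in A20iKO vs WT, at most 1.28 in A20iKO and at least 1.29 in WT.

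**Figure D3:**
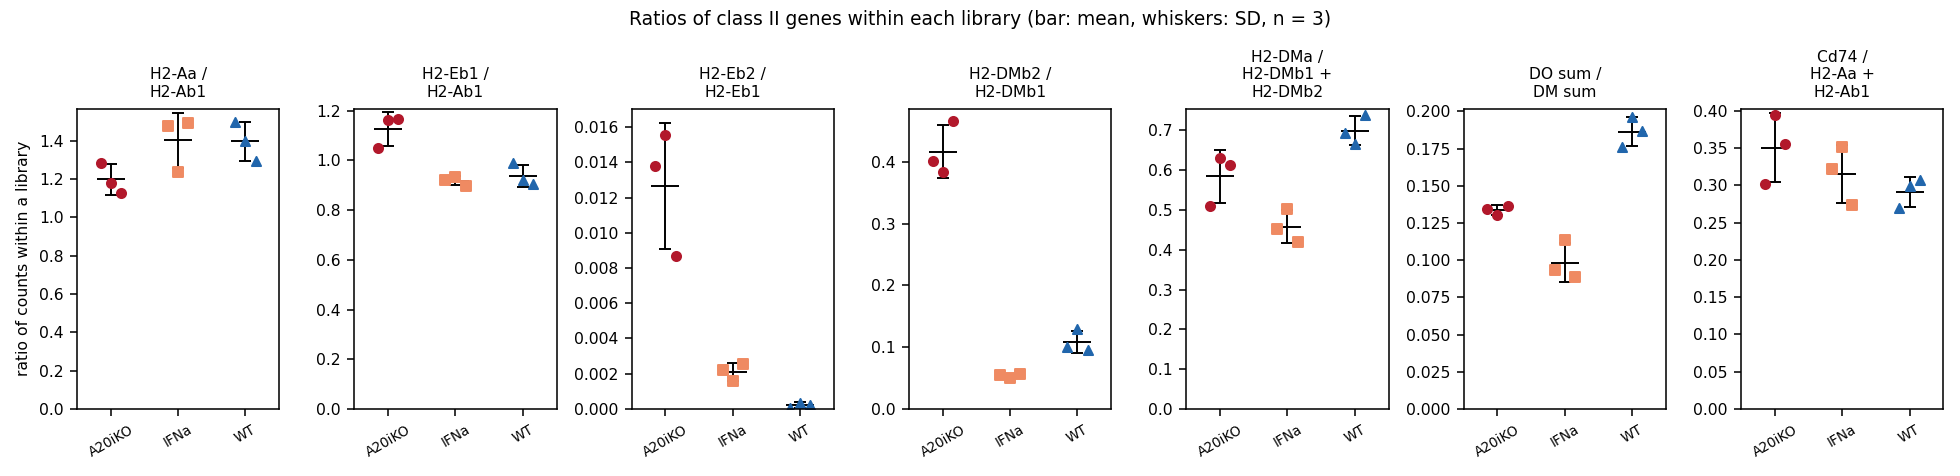
Ratio of counts (y axis, linear from 0, its own scale per panel) for 7 pairs of class II genes or sums in the 3 libraries of A20iKO (circles), IFNa (squares) and WT (triangles); horizontal lines are means and whiskers SD. H2-DMb2 over H2-DMb1 is 0.416 in A20iKO, 0.054 in IFNa and 0.108 in WT on average, and the DO to DM ratio is below WT in both other groups.

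The regulators and processing enzymes of the pathway did not follow the class II genes as a block. Of 29 such genes, 12 were regulators and 17 processing and turnover genes. In A20iKO vs WT 6 were higher and 3 lower, or 31% of the list against 10.7% of all genes. In IFNa vs WT 1 was higher and 1 lower (6.9% against 3.1%), and in A20iKO vs IFNa 4 were higher and 3 lower (24.1% against 5.46%). The median log2 fold changes of the 29 genes were -0.01, 0.12 and -0.12. Ciita, the class II transactivator, averaged 449 CPM in A20iKO, 488 CPM in IFNa and 599 CPM in WT. Its log2 fold change in A20iKO vs WT was -0.42 (SE 0.155; edgeR adjusted p = 0.119), and these groups did not overlap. Ciita passed there in 2 of 16 alternatives, without WT replicate 2 (-0.59; edgeR adjusted p = 0.0144) and with the stromal sum as a covariate (-0.45; edgeR adjusted p = 0.0189). In IFNa vs WT the log2 fold change of Ciita was -0.30 (edgeR adjusted p = 0.469), and the groups overlapped. Rfx5, a subunit of the X box binding complex, averaged 43.9, 34 and 44.3 CPM in the same order and passed in no comparison (edgeR adjusted p = 0.988, 0.615 and 0.561 for A20iKO vs WT, IFNa vs WT and A20iKO vs IFNa). In the fit behind the counts above, the transcription factor gene Irf4 alone passed among regulators. It averaged 58.5 CPM in A20iKO, 133 CPM in IFNa and 157 CPM in WT. The log2 fold change of Irf4 was -1.42 in A20iKO vs WT (edgeR adjusted p = 0.0021) and -1.19 in A20iKO vs IFNa (edgeR adjusted p = 0.0122). The second of these was lost without A20iKO replicate 3 or IFNa replicate 1 or 2 (edgeR adjusted p = 0.0594, 0.0631 and 0.0531).

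Of the 17 processing and turnover genes, 6 rose and 2 fell in A20iKO vs WT, and the other members of the list did not pass. The share that passed was 47.1%, against 10.7% of all genes. Ctsd, encoding cathepsin D, averaged 377 CPM in A20iKO, 204 CPM in IFNa and 96.7 CPM in WT, and differed between all 3 groups (log2 fold change 1.96, 1.08 and 0.88 in A20iKO vs WT, IFNa vs WT and A20iKO vs IFNa). Ifi30, the lysosomal thiol reductase gene, averaged 458, 193 and 145 CPM in the same order and rose in A20iKO over WT (1.66) and over IFNa (1.24). Ctsz, Lamp1, Ctsb and Ctsc also rose in A20iKO over WT, by 1.10, 0.76, 0.64 and 0.69 on the log2 scale. Ctsz and Lamp1 passed over IFNa as well. Against this, Cst3, the cystatin C gene that inhibits cysteine cathepsins, averaged 1116 CPM in A20iKO, 3376 CPM in IFNa and 4956 CPM in WT (-2.15 in A20iKO vs WT, -0.55 in IFNa vs WT and -1.60 in A20iKO vs IFNa). Marchf1, whose product ubiquitinates surface class II and shortens its life, fell to 118 CPM in A20iKO, against 205 CPM in IFNa and 228 CPM in WT (-0.96 in A20iKO vs WT and -0.80 in A20iKO vs IFNa). Ctss, encoding the protease that makes the last cuts in the invariant chain, averaged 1303 CPM in A20iKO, 1622 CPM in IFNa and 1330 CPM in WT and passed in no comparison. Calls lost when single libraries were left out were those of Ctsb and Ctsc in A20iKO vs WT (without A20iKO replicate 2 or 3 or WT replicate 2, and for Ctsc also WT replicate 3; edgeR adjusted p up to 0.112), Cst3 in IFNa vs WT (without A20iKO replicate 2 or 3, IFNa replicate 2 or 3, or WT replicate 1 or 3; up to 0.123), and Ctsz, Marchf1 and Lamp1 in A20iKO vs IFNa (each A20iKO and IFNa library for Ctsz, A20iKO replicate 1 or 2 and IFNa replicate 1 or 2 for Marchf1, and A20iKO replicate 2 or 3 and IFNa replicate 3 for Lamp1; up to 0.119). Ctsb and Ctsc were also lost in A20iKO vs WT with the IFNa libraries out of the fit (edgeR adjusted p = 0.0531 and 0.0523).

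**Figure D4:**
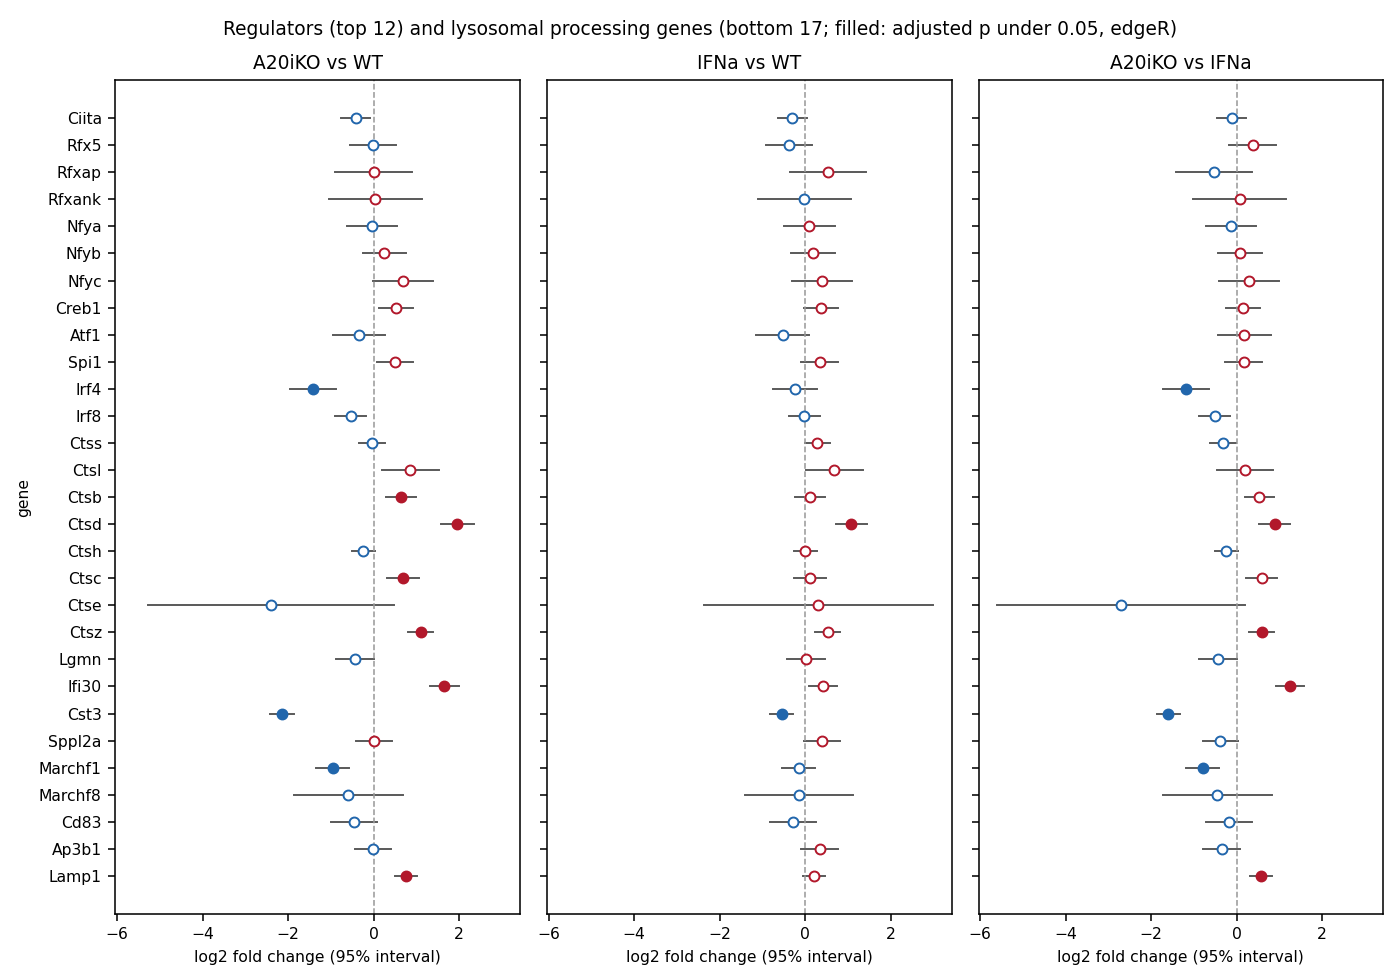
Log2 fold changes (x axis) of 12 regulators (Ciita to Irf8) and 17 lysosomal processing and turnover genes (Ctss to Lamp1) in A20iKO vs WT, IFNa vs WT and A20iKO vs IFNa; lines are 95% intervals and filled points passed edgeR's test at an adjusted p under 0.05. Ctsd and Ifi30 lie right of 0 and Cst3 left of 0 in A20iKO vs WT, while Ciita and the RFX and NF-Y subunits have open points.

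The genes most alike in pattern were sought for each member by Pearson's r of log2(CPM + 1) over the 9 libraries, among 8180 other genes with a mean of at least 10 CPM. Such an r takes in the differences between groups and is a description. H2-Aa was most like Dusp3 (r = 0.991), which averaged 45.3 CPM in A20iKO, 85 CPM in IFNa and 148 CPM in WT, and H2-Ab1 was most like Aldoc (r = 0.993). H2-DMa and Cd74 were each among the 3 genes nearest the other (r = 0.988). The genes nearest H2-Eb1 and H2-Ob were the ribosomal protein genes Rps28 and Rps29 (r = 0.992 and 0.988 for H2-Eb1, 0.977 and 0.98 for H2-Ob). H2-Oa was nearest Mxd4 (r = 0.952). H2-DMb1 was nearest Slamf7 (r = 0.991), at 204 CPM in A20iKO, 570 CPM in IFNa and 469 CPM in WT, and H2-DMb2 was nearest Galk1 (r = 0.978). H2-Eb2 was nearest Ppp1r14a (r = 0.987), Ly6a2 (r = 0.983) and Cd72 (r = 0.982), the last at 47.4 CPM in A20iKO, 11.9 CPM in IFNa and 2.28 CPM in WT.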

How the data were processed

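RNA of 9 libraries of sorted mouse cDC2s was made into 3' tag libraries (QuantSeq FWD), per the labels' protocols. The authors deposited raw counts per gene symbol, 1 table per library. The submitters' processing notes list fastp 0.23.1, Bowtie2, STAR 2.7.10b, featureCounts 2.0.6 and the build GRCm39. Which tool did what, the gene models, strandedness and the handling of reads with several matches are stated nowhere in the sources used here. Total counts ranged from 6900598 to 10552756 per library, and the limits for 0 counts cover counting error only.

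Groups came from the titles. Genes were kept with filterByExpr (minimum count 10, minimum total 15), which left 13251 genes with 99.8% of counts. edgeR 4.0.16 (R 4.3.3) fitted its quasi-likelihood model with TMM factors to all 9 libraries (6 residual degrees of freedom). Benjamini-Hochberg adjustment ran over the 13251 genes with a threshold of 0.05, and SEs were taken from the log2 fold change and the F statistic. The code was tested on simulated data for A20iKO vs WT, with each gene's spread set by its level alone. Of genes changed by 1 or 2 on the log2 scale, 13.7% and 63.9% were called, and of unchanged genes 0.0724%. A gene that did not pass may thus still differ. Within-library ratios were tested by exact permutation. Library pairs of a group differed beyond sampling noise (chi-square per degree of freedom 14.4 or more), and each library counted as 1 replicate. Named genes were the 10 members, control and processing genes past the threshold with Ciita and Rfx5, and the 3 genes most like each member. H2-Ea, Brd2, Ctss, Tnfaip3 and marker genes were named for what they encode or where they lie. The members, lists and tests were chosen with earlier results of these data known. Alternatives were DESeq2 1.42.0, other scaling (RLE factors, library size), no filter, a replicate block, a stromal covariate, fits of 2 groups, summed paralogs and single libraries left out. Promoters are RefSeq's (GRCm38.p6) and transcript ends GENCODE's (M21, GRCm38), another build than that of the counts, so no coordinate was joined to a count.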

Additional observations from a re-analysis of the deposited data

How the results depend on the processing

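The members called in A20iKO vs WT, 2 higher and 8 lower, kept direction and threshold under the alternatives that test each gene by itself but for H2-Oa, lost without A20iKO replicate 2 or 3. With paralogs summed, H2-Eb2 and H2-DMb2 have no value of their own, and the sums with H2-Eb1 and H2-DMb1 were lower (-0.88 and -0.70). Over all alternatives, member fold changes kept side and direction in 439 cases, lost the call in 26, gained it in 19 and turned round in 2. With the A20iKO libraries out of the IFNa vs WT fit, edgeR called 0 members higher (1, H2-Eb2, at an unadjusted p under 0.05, and 1 called by DESeq2 with all 9 libraries) and 4 lower. In the same comparison 8 were called lower by DESeq2, by library size alone or with the stromal covariate. Scaling by library size alone placed the all-gene median (log2) at -0.15 in IFNa vs WT (-0.02 with TMM) and 0.12 in A20iKO vs IFNa (0.02 with TMM). Leaving out 1 library at a time gave these ranges of called genes, cause not tested. Members called in A20iKO vs WT were 2 to 2 higher and 7 to 8 lower, in IFNa vs WT 1 to 1 higher and 3 to 7 lower, and in A20iKO vs IFNa 1 to 2 higher and 2 to 4 lower. Control and processing genes called were 4 to 7 higher and 3 to 5 lower in A20iKO vs WT, 1 to 1 and 0 to 1 in IFNa vs WT, and 2 to 5 and 1 to 3 in A20iKO vs IFNa. All genes called were 478 to 750 higher and 439 to 721 lower in A20iKO vs WT, 225 to 320 and 43 to 106 in IFNa vs WT, and 145 to 342 and 227 to 546 in A20iKO vs IFNa. With the stromal covariate, 7 members, 6 control and processing genes and 799 of all genes were lower in A20iKO vs IFNa (463 of all genes higher), 5 control and processing genes and 990 of all genes were lower in A20iKO vs WT, and 3 control and processing genes were higher in IFNa vs WT, with 501 of all genes higher and 235 lower. DESeq2 called 2 control and processing genes higher in IFNa vs WT, with 519 of all genes higher and 228 lower, and 541 higher in A20iKO vs IFNa. Lower calls over all genes in IFNa vs WT were 184 by library size alone and 164 with no filter, and higher calls in A20iKO vs IFNa were 430 with no filter and 471 with 2 groups in the fit. Same-numbered libraries did not deviate together more than others (r from -0.42 to 0.29 over 9 pairs, against -0.36 to 0.41 over 18 other pairs). The largest r, 0.41, joined the stroma-rich libraries A20iKO replicate 1 and IFNa replicate 3. Stromal content thus enters these values, and they cannot tell whether the numbers pair the libraries. The replicate block left 45 genes lower in IFNa vs WT and 0 control and processing genes lower by edgeR (1, Cst3, at an unadjusted p under 0.05, and 1 called by DESeq2 without a block), and lost H2-DMb2 (adjusted p = 0.0667) and H2-Oa (adjusted p = 0.0557) there and Ctsz in A20iKO vs IFNa (adjusted p = 0.0667). Values near 0 changed sign. H2-Oa in A20iKO vs IFNa ranged from -0.18 to 0.19 with 1 library left out and was -0.014 with the stromal covariate. Rfx5 in A20iKO vs WT ranged from -0.18 to 0.20 with single libraries left out. In IFNa vs WT, the log2 ratio of H2-Aa to H2-Ab1 ranged from -0.050 to 0.092, with -0.036 and -0.044 without IFNa replicate 1 and 3, and that of H2-Eb1 to H2-Ab1 from -0.055 to 0.0070. In WT, depth limited H2-Eb2, which held 3 to 18 counts a library.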
